A study of Xenopus tropicalis with 11 samples.

Results

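The flanks of the *Xenopus tropicalis* centromeres were described over the 10 kb bins whose middle lay more than 0.5 Mb and at most 5 Mb from the centre of the Cenp-a signal on each chromosome. Chosen by that distance alone, these pericentromeric bins number 8997, of 145051 bins in the count table and 144914 on the 10 chromosomes (6.21% of the latter), with 899 or 900 per chromosome. The centres themselves were selected on the Cenp-a over input signal of the same libraries, so values of Cenp-a against input are given below as a description only, and so are values of Cenp-a against H3 or H4, which use the same Cenp-a libraries. The question that the bins address is how far the chromatin next to the centromere core differs from the chromosome arms in bulk histones, in Cenp-a and in the reads that any library returns.

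The series holds 11 libraries from wild-type XTN-6 cells of the NXR Nigerian strain, with NF stage 20 given as the stage. The labels name the cell type as whole tadpole and the source as XTN-6 cells, a cultured line, and no marker in these data can tell them apart. Native chromatin was cut to mononucleosomes with micrococcal nuclease (MNase) and precipitated with a rabbit antibody against *X. laevis* Cenp-a that also recognises the *X. tropicalis* protein (replicates 1 to 3), against H3 (replicates 2 and 3), against H4 (replicate 1 only) or with IgG (replicates 2 and 3), and the MNase-cut input was sequenced for replicates 1 to 3. All groups share 1 genotype and 1 strain and no treatment. The labels call the replicates biological whereas the methods call them technical, so p-values measure the spread between these samples, which may be technical.

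Cenp-a is the H3 variant that marks active centromeres, and the pericentromere is the chromatin around the Cenp-a domain. In vertebrates it is commonly rich in repeats, packed with nucleosomes of ordinary H3, and poor in genes and in crossovers, and it carries cohesin that holds sister chromatids together. H3 and H4 precipitates report the nucleosomes that their antibodies pull down, and IgG reports what binds to the beads without a specific antibody. The input was itself taken from the precleared mononucleosomes. A ratio to input therefore compares precipitated with soluble mononucleosomes and is not a measure of nucleosome content.

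Library totals ran from 4053600 (IgG 2) to 229872947 counts (Cenp-a 3), and the median pericentromeric bin held 26 counts in IgG 2, 84 in Cenp-a 2 and 262 to 1418 in the other libraries. IgG 2 was therefore the least precise library. The 8997 bins took 6.40% of the counts of H4 1, 6.55% to 6.73% of Cenp-a, 6.77% and 6.80% of H3, 6.84% to 6.92% of input and 6.94% and 6.93% of IgG. No bin was at 0 in all libraries, and 8984 to 8986 of the 8997 passed the filter on low counts, depending on the comparison.

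The level of a bin is its depth-scaled count (CPM, its share of the library) divided by that of the median chromosome bin of the same library, so 1 is an ordinary bin. Nearest to the centromere, at 0.5 to 1 Mb, the median level in the inputs was 1.15, 1.12 and 1.12, and it fell with distance to 0.954, 0.980 and 0.983 at 4 to 5 Mb. IgG followed the inputs, from 1.17 and 1.14 to 1.00 and 0.981. The bulk histone libraries started lower, H3 at 1.09 and 1.08 and H4 at 1.02, and ended at 0.974, 0.989 and 0.956. In all 11 libraries the innermost band was above the outermost, and the H4 library had the smallest difference.

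**Figure D1:**
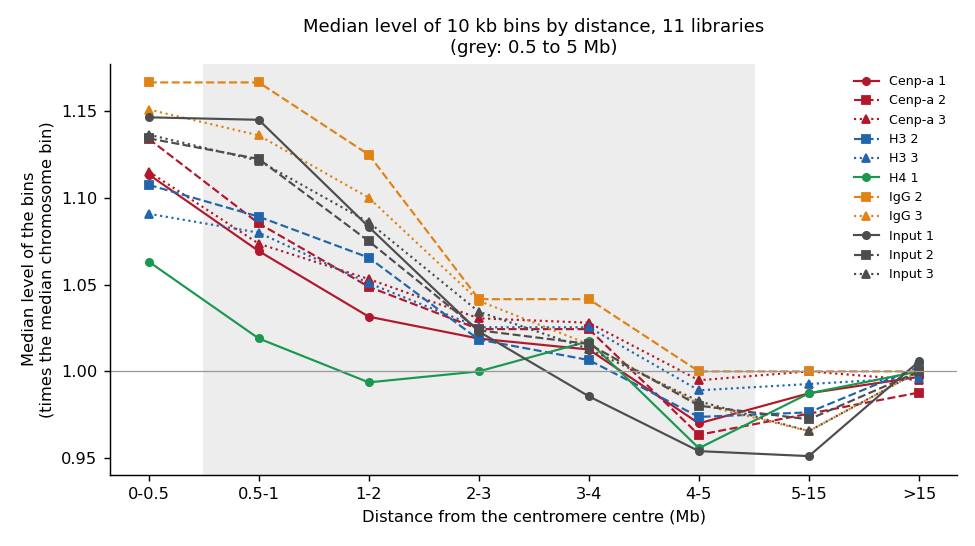
Median level of the bins (vertical axis, times the median chromosome bin) by distance from the centromere centre in Mb (horizontal axis), 1 line per library and no error bars. In the grey bands, 0.5 to 5 Mb, input and IgG fall from 1.12 to 1.17 down to 0.954 to 1.00, and H4 1 starts lowest, at 1.02.

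Neither limit of the window was a step in the data. Just inside 0.5 Mb of the centre (0.4 to 0.5 Mb) the median input level was 1.14, 1.13 and 1.12, and just outside (0.5 to 0.6 Mb) it was 1.17, 1.14 and 1.14. At the outer limit it was 0.954, 0.968 and 0.977 at 4.9 to 5.0 Mb and 0.964, 0.996 and 0.989 at 5.0 to 5.1 Mb. The median ratio of Cenp-a to input across the inner limit was 0.937, 0.966 and 0.966 inside and 0.938, 0.985 and 0.969 outside.

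Divided bin by bin by the input of the same replicate, the histone signal was lower in the inner than in the outermost band of the window. At 0.5 to 1 Mb the median ratio of H4 to input was 0.923, and those of H3 were 0.978 and 0.984. At 4 to 5 Mb they were 1.02, 0.990 and 1.01. The outermost band was the higher in each of the 3 pairs, and by the most in H4. Within 0.5 Mb of the centre, outside the window, the ratios were 0.969, 0.992 and 0.991, above those at 0.5 to 1 Mb, and H3 replicate 3 was about as low at 1 to 2 Mb (0.983) as at 0.5 to 1 Mb. H4 was measured in replicate 1 only and H3 in replicates 2 and 3 only, so the histone and the replicate cannot be told apart. IgG to input did not follow it, at 1.00 and 1.01 near the centre and 0.980 and 0.998 at 4 to 5 Mb. For Cenp-a, described only, the ratio was 0.942, 0.984 and 0.964 at 0.5 to 1 Mb and 1.02, 0.985 and 1.01 at 4 to 5 Mb, so replicate 2 was flat where replicates 1 and 3 rose. With chromosome 8 left out, a choice made after seeing the data, H4 to input at 0.5 to 1 Mb was 0.931 and H3 to input 0.976 and 0.988.

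**Figure D2:**
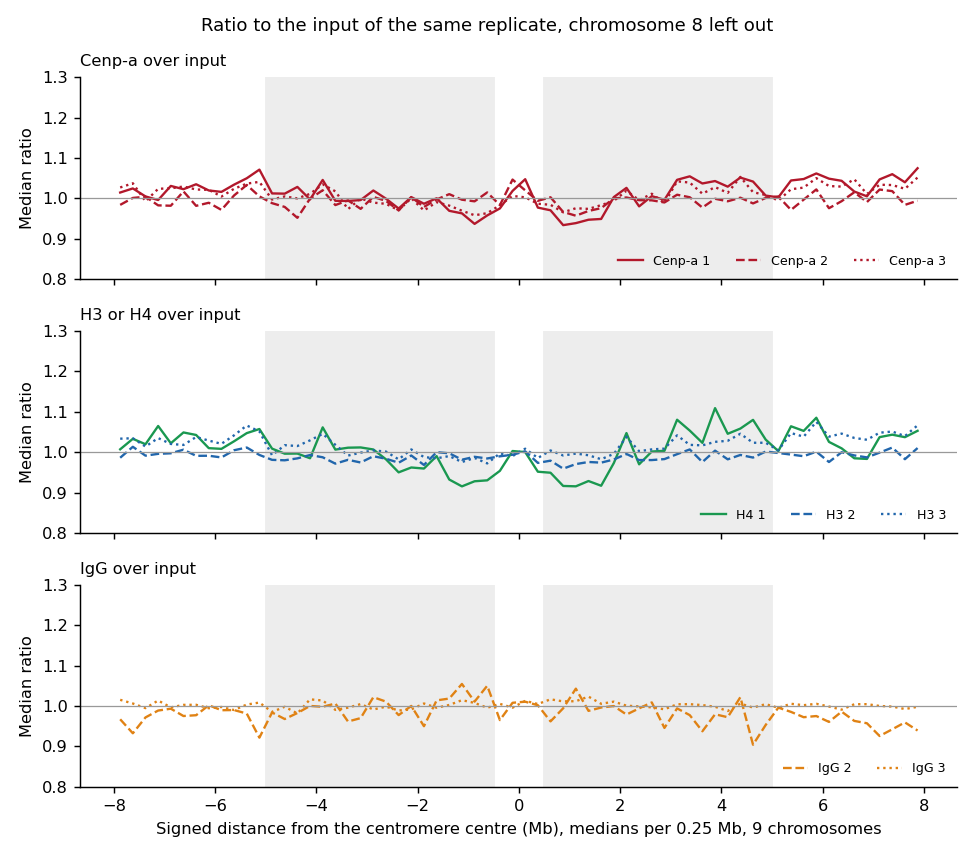
Median ratio of each precipitate to its own input (vertical axis) by signed distance from the centre in Mb (horizontal axis, medians per 0.25 Mb over 9 chromosomes, without chromosome 8), with 0.5 to 5 Mb in grey and no error bars. H4 1 lies lowest beside the centre, where its 0.5 to 1 Mb median is 0.931, and the IgG lines stay near 1, with IgG 2 the noisiest.

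Over the whole window the differences were small. The regional ratio is the counts per bin in the window over the counts per bin more than 5 Mb away, divided by the same in the paired input. It was 0.931 for H4 replicate 1, 0.989 for H3 replicate 2 and 0.982 for H3 replicate 3, a mean log2 ratio of -0.05 ± 0.05 (SD, n = 3; two-sided exact sign-flip permutation test, p = 0.25, the smallest that 3 pairs can give). All 3 pairs were below 1, and H4 was furthest from it: without replicate 1 the mean log2 ratio was -0.02. The mean was also closer to 0 without the bins above 2 times the median input (-0.023) and as a median over bins (-0.030), and further from it scaled to the bins 5 to 15 Mb away (-0.073). IgG gave 1.01 and 1.00 (mean log2 0.01 ± 0.01, n = 2 pairs; two-sided exact sign-flip permutation test, p = 0.5, the smallest that 2 pairs allow). Without chromosome 8 the bulk histone values were 0.971, 0.984 and 1.00, and H3 replicate 3 was then no longer below the arms (two-sided exact sign-flip permutation test over the 3 pairs, p = 0.5). For Cenp-a the description was 0.971, 0.993 and 0.982 against input, and 1.04, 1.00 and 1.00 against the H4 or H3 of its replicate. Without chromosome 8, Cenp-a against input was 1.00 in each replicate.

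Bin by bin, the bulk histones were called different from input in 1 bin, too few to set against the share over all bins. That call depended on the settings. With edgeR's quasi-likelihood test over the whole table and Benjamini-Hochberg adjustment, 1 of 8984 pericentromeric bins was higher in H3/H4 than in input and 0 were lower, where over all bins 0.00415% were called higher and 0.00415% lower. Before adjustment, p in edgeR was under 0.05 for 434 of the 8984 bins higher and 665 lower, against 8.13% and 7.1% of all bins. The share higher was below that of all bins, and the share lower was close to it. Of the 665 lower bins, 214 lay among the 440 tested on the lower-coordinate side of chromosome 8, and 0 of the 434 higher did. The closeness of the share lower thus rests in part on that side. DESeq2, which kept 497 of the bins after its own filter on low means, called 0 higher and 25 lower (5.03% of the 497). Of the bins it kept over the whole table, 0.788% were higher and 2.47% lower. Of the 25, 16 lay on the lower-coordinate side of chromosome 8. On that side 275 of 450 bins had an input level over 2, and the filter keeps bins with high counts. No enrichment is therefore read from the 16. The count in edgeR depended on the replicate left out, and the cause was not tested. Without replicate 2, 148 bins were called higher and 304 lower (background 3.5% and 3.67%), and 176 of the 304 lay on the lower-coordinate side of chromosome 8. Without replicate 1 the counts were 2 and 4, and without replicate 3 they were 1 and 0. Of the bins more than 5 Mb away, 0.0743% without replicate 1 and 0.0461% without replicate 3 were called in either direction. Nothing about the window is read from so few bins. The called bin, chr2:69475402-69485401 on UCB_Xtro_10.0, spans rpl10a, which encodes a protein of the large ribosomal subunit, and the end of the lncRNA gene LOC105948363.

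In the rpl10a bin the counts were 604 in H4 1, 412 in H3 2 and 339 in H3 3, beside 311, 197 and 366 in inputs 1 to 3. Scaled by depth, the precipitate was 2.19, 1.37 and 1.59 times its input, so all 3 pairs were higher and H4 was the highest. The log2 fold change was 0.78 ± 0.13 (SE) with an adjusted p of 0.0485 in edgeR, and 0.0265, 1.6e-07 and 0.0103 with replicate 1, 2 or 3 left out. The call was lost with TMM factors and with no replicate block, each of which called 0 bins higher. DESeq2 gave a log2 fold change of 0.76 and no adjusted p. IgG to input in the same bin was 1.79 and 1.04, so IgG 2, with 34 counts, overlapped the histone libraries.

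IgG was called different from input in 0 of 8985 bins in edgeR and 0 in DESeq2, where edgeR called 0.00207% of all bins. In simulated data this comparison recovered 11 of 100 bins raised 1.5-fold, so the 0 cannot exclude differences of that size. Before adjustment, 54 of the 8985 bins were higher and 35 lower in edgeR with p under 0.05, against 0.539% and 0.516% of all bins. Cenp-a against H3/H4, which shares its Cenp-a libraries with the choice of the centres, gave 0 of 8985 bins in edgeR and 0 in DESeq2. In edgeR 0.134% of all bins were called. All bins include those within 0.5 Mb of a centre, where Cenp-a is high by selection, so that share is no neutral background. Before adjustment, p in edgeR was under 0.05 for 201 of the 8985 bins higher and 165 lower, against 2.05% and 3.33% of all bins. The share higher was close to that of all bins, and the share lower was below it.

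Cenp-a against input is described with its background and with nothing read from it. Of 8986 bins, 213 were higher (2.37%) and 293 lower (3.26%) at an adjusted p under 0.05 in edgeR. Over all bins 3.81% were higher and 5.47% lower. At 5 to 15 Mb the shares were 4.41% and 4.37%, and over 15 Mb away 3.75% and 5.85%. A fold of 2 or more held for 2 bins higher (0.0223%) and 1 lower (0.0111%), and a fold of 5 or more for 0. Over all bins the shares at a fold of 2 were 0.0898% and 0.0173%. All bins include those within 0.5 Mb of a centre, of which 11.0% were called higher with no fold minimum. Leaving out replicate 1 gave 43 higher and 69 lower bins, leaving out replicate 2 gave 429 and 638, and leaving out replicate 3 gave 23 and 30. DESeq2, which kept 6781 of the bins, gave 32 and 87. The shares over all bins in these alternative runs are not given here, so the changes are not read as particular to the window. The higher bins held a protein-coding gene in 185 of 213 cases (86.9%) and the lower bins in 91 of 293 (31.1%), beside 60.9% of the bins tested. Of the 293 lower bins, 127 lay on the lower-coordinate side of chromosome 8 and 0 of the 213 higher bins did. Without that side, 75 of 166 lower bins (45.2%) held a protein-coding gene. The median input level was 0.899 in the higher bins and 1.89 in the lower, beside 1.03 in the bins tested. The bins were called against these same inputs, so that order of input levels is partly fixed by the call.

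The bins with the largest positive difference lay over named genes. The rpl10a bin had 2.47, 1.96 and 2.18 times as much Cenp-a as input in replicates 1 to 3. In chr2:71975893-71985892, over csf1, which encodes the macrophage growth factor Csf1, it was 2.85, 1.52 and 2.15. In chr1:93107857-93117856, over eef2.1, which encodes a translation elongation factor, it was 2.58, 1.37 and 1.72. H4 to input was 2.19, 2.41 and 2.14 in that order, but it is divided by the same input 1 as Cenp-a replicate 1 and the bins were picked on that ratio, so nothing is read from the likeness. H3 to input was 1.37 and 1.59, 1.00 and 1.62, and 1.02 and 1.26. The ratio of Cenp-a to the H4 or H3 of its replicate stayed between 1.13 and 1.52 in the 3 bins. The next were bins over dhrs11, which encodes a short-chain dehydrogenase (2.01, 1.71 and 1.36), and over tmem100, a transmembrane protein gene (1.88, 1.53 and 1.40).

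On the other chromosomes the bin with the highest mean ratio of Cenp-a to input lay over npm1 on chromosome 3, a nucleolar histone chaperone (2.05, 1.26 and 1.36), tppp3 on chromosome 4 (1.43, 1.59 and 1.60), LOC101734009 on chromosome 5 (1.92, 1.22 and 1.47), and pdcd6 and pigm on chromosome 6 (1.56, 1.39 and 1.37). On chromosome 7 it lay over antxrl and LOC116412024 (1.47, 1.04 and 1.56) and on chromosome 9 over actb, which encodes cytoplasmic actin (1.76, 1.22 and 1.32). Values above 1 follow from picking the highest bin, and replicate 1 was the highest in 4 of these 6 bins. On chromosome 8 the highest bin rested on counts of 12, 3 and 29 in Cenp-a and 16, 0 and 8 in input, too few to read.

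The most negative differences lay in gene-free bins. In chr4:43573438-43583437, where the mean input level was 4.49, Cenp-a to input was 0.444, 0.779 and 0.543, H4 to input was 0.461, H3 to input 0.770 and 0.596, and IgG to input 1.18 and 0.853. In chr5:61214911-61224910 Cenp-a to input was 0.433, 0.717 and 0.654, H4 to input 0.468 and H3 to input 0.975 and 0.639. H4 and Cenp-a replicate 1 share input 1 and the bins were picked for a low Cenp-a to input ratio, so their likeness is a description only. The other 3 were on the lower-coordinate side of chromosome 8, with at most 382 counts in any Cenp-a library.

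Chromosomes 3 and 8 stood above the others in every library. Their pericentromeric bins had a median level of 1.45 to 1.48 (chromosome 3) and 1.41 to 1.52 (chromosome 8), where the other 8 chromosomes had 0.875 to 1.04. The same was seen beyond 5 Mb, where the median level was 1.32 to 1.36 on chromosome 3 and 1.29 to 1.34 on chromosome 8, so the high level was not confined to the 5 Mb around the centre. Chromosome 10 was high only beyond 5 Mb (1.23 to 1.51). Copy number, mapping and assembly were not tested as a part of it.

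**Figure D3:**
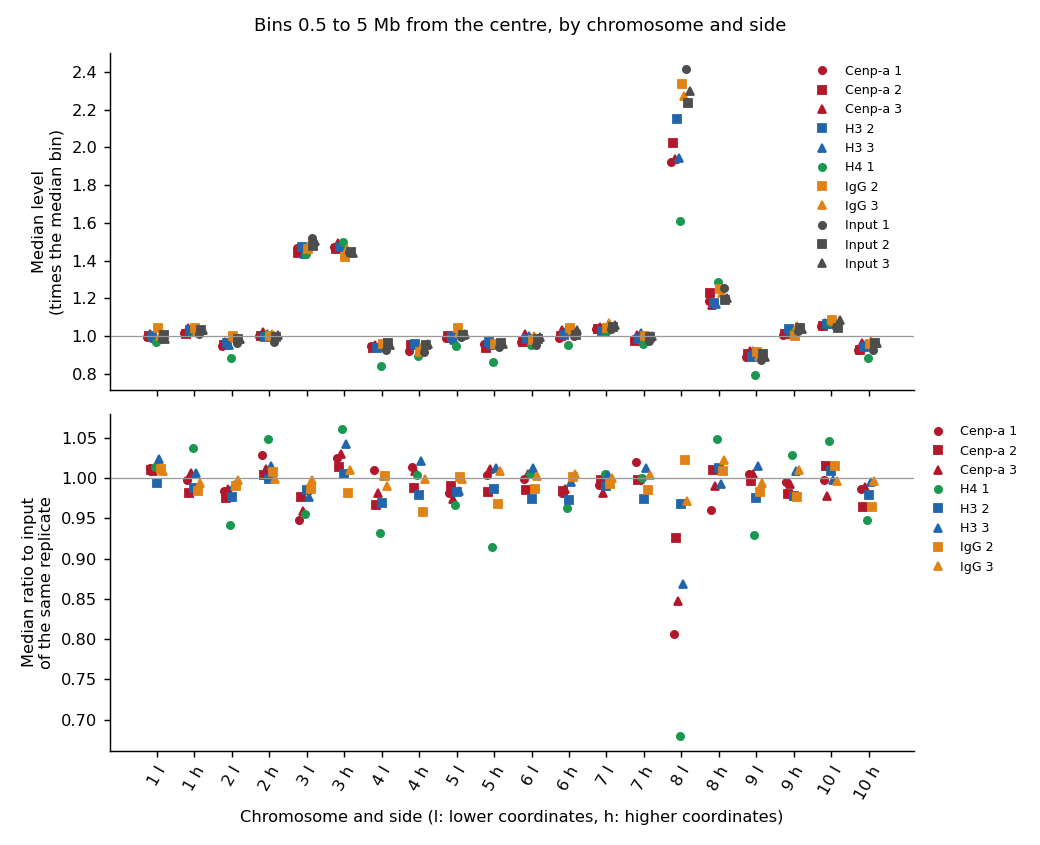
Upper panel, median level of the bins 0.5 to 5 Mb away (times the median chromosome bin) for each chromosome and side, 1 point per library; lower panel, median ratio of each precipitate to its own input, 1 point each, no error bars. The lower-coordinate side of chromosome 8 stands apart, at an input level of 2.24 to 2.42 and an H4 to input ratio of 0.680.

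Within chromosome 8 the 2 sides differed. On the lower-coordinate side, chr8:16440983-20941473 with 450 bins, the median level was 2.42, 2.24 and 2.30 in the inputs, 2.33 and 2.27 in IgG, 2.15 and 1.95 in H3, 1.61 in H4 and 1.92, 2.02 and 1.94 in Cenp-a. On the higher-coordinate side it was 1.19 to 1.25 in the inputs, 1.25 and 1.23 in IgG, 1.18 and 1.17 in H3 and 1.29 in H4. H4 was the lowest library on the first side and the highest on the second.

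The ratios to input gave the same order. On the lower-coordinate side H4 to input was 0.680, H3 to input 0.969 and 0.869, IgG to input 1.02 and 0.972 and Cenp-a to input 0.806, 0.925 and 0.847. On the higher-coordinate side H4 to input was 1.05, H3 to input 1.01 and 0.993 and Cenp-a to input 0.961, 1.01 and 0.991. H4 lay below every other library on the lower-coordinate side and above every other on the higher, while the H3 and Cenp-a values overlapped on both. This side was chosen after its values were seen and 1 H4 library was made, so no test is given. It held 13.4%, 11.9% and 12.5% of the input counts of all 8997 bins and 9.59% of those of H4.

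**Figure D4:**
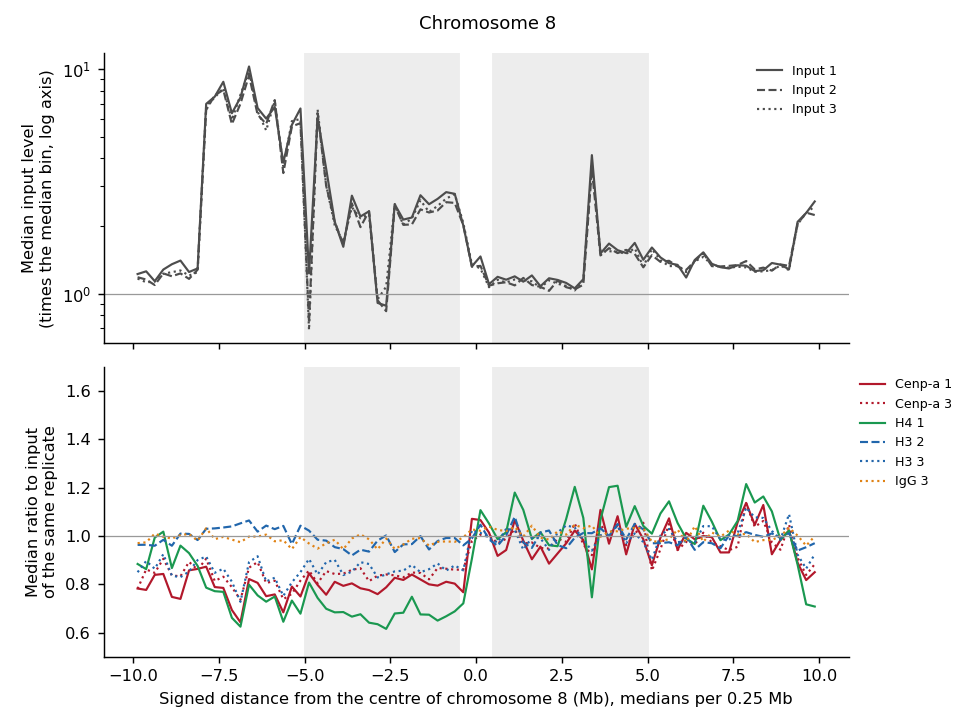
Chromosome 8 by signed distance from its centre in Mb (horizontal axis, medians per 0.25 Mb), with 0.5 to 5 Mb in grey. Upper panel, median input level on a log axis; lower panel, median ratio to the own input for 6 of the 8 precipitates, no error bars. On the lower-coordinate side input is raised and H4 1, Cenp-a 1 and H3 3 lie below 1 (medians of 0.680, 0.806 and 0.869), while IgG 3 stays near 1 (0.972).

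The raised stretch did not end at the 5 Mb limit. At 5 to 6 Mb on the same side the median input level was 6.11, at 7 to 8 Mb it was 7.47 and at 8 to 9 Mb 1.26. H4 to input was 0.712, 0.749 and 0.899 in those 3 steps. Inside the window, the innermost 0.5 Mb step had an input level of 2.83, 2.54 and 2.77 and an H4 to input ratio of 0.678, and only the step from 2.5 to 3 Mb had an input level under 1 (0.904, 0.883 and 0.973), with an H4 to input ratio of 0.631. H4 to input was below 1 in each of these steps, and only replicate 1 has an H4 library. Beyond 5 Mb the low ratio was not confined to H4. At 5 to 6 Mb the ratio was 0.746 for Cenp-a 1, 0.790 for Cenp-a 3 and 0.821 for H3 3. H4 was lower still, at 0.712. At 8 to 9 Mb these other libraries, at 0.786, 0.860 and 0.855, were below H4. Cenp-a 2 (0.907 and 0.927), H3 2 (1.03 and 0.982) and the IgG libraries were above H4 at each of these distances. The step values are medians, which can mix bins of high and low input, and input level as a part of the low ratios was not tested.

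Across the 8997 bins 423 (4.70%) had a mean input level over 2, and 275 of them lay on the lower-coordinate side of chromosome 8, 61.1% of its bins, beside 3.76% of the bins more than 5 Mb away. The same side held 55 of the 71 bins with an input level under 0.5. The 3 lowest bins above 0 were also there, with 0 to 4 input counts each.

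The 5 bins with the highest input lay in 2 places. At chr8:16800983-16810982, within LOC101732242, the level was 64.2 and the counts were 22565, 15207 and 31428 in inputs 1 to 3, and 9060 in H4, 26899 and 11325 in H3, and 1669 and 40368 in IgG. H4 to input was 0.458, H3 to input 1.17 and 0.624, and IgG to input 1.15 and 0.932. H3 replicate 2 was thus on the side of IgG and H3 replicate 3 on that of H4. A bin nearby, chr8:16750983-16760982, had a level of 43.5 and an H4 to input ratio of 0.470.

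The other 3 lay at chr5:65715402-65725401, chr5:65725402-65735401 and chr5:65875402-65885401, with levels of 41.8, 50.5 and 40.5. H4 to input was 0.748, 0.938 and 0.778 there, and H3 to input lay between 0.960 and 1.19. They belong to a stretch of 310 kb, chr5:65715402-66025401, in which 21 bins exceeded an input level of 2 and which overlaps LOC101734009 and trdn, the gene of triadin, a protein of muscle calcium stores. Summed over those 21 bins, H4 to input was 0.81, H3 to input 0.98 and 1.04, and Cenp-a to input 0.97, 1.02 and 1.01.

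Other stretches of high input, named after their values were seen, did not all share the low histone ratio. At chr9:45473438-45593437, over the glutaminase gene gls, 10 bins had a mean input level of 6.72, and H4 to input was 1.05 and H3 to input 1.02 and 0.98. At chr8:24671965-24971964, on the higher-coordinate side, 24 bins had a mean level of 17.4 and H4 to input was 0.75 and H3 to input 1.04 and 0.92. At chr10:24701965-24791964, 6 bins had 10.6, with H4 to input of 0.80 and H3 to input of 1.00 and 0.91.

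Outside the lower-coordinate side of chromosome 8, bins with an input level of 2 to 5 (101 bins) had a median H4 to input ratio of 0.806, and H3 to input of 0.945 and 0.891, and bins between 0.8 and 1.2 (5888) had 1.01, 0.987 and 1.01. On that side the 25 bins between 0.8 and 1.2 had 0.631, 1.00 and 0.846. The input level that sorted these bins includes the input by which each ratio is divided. A lower ratio in high-input bins is therefore partly built in, here and in the stretches of high input above, so these medians are a description only. Across all 8997 bins the Spearman correlation of the H4 ratio of replicate 1 with the input level of replicate 2 was -0.19, that of the H3 ratio of replicate 3 was -0.23, and that of the H3 ratio of replicate 2 with the input level of replicate 3 was -0.01. These are correlations across bins, which are not independent replicates, and they share read depth and mapping.

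The ratios of separate replicates agreed only in part. Across the 8997 bins the Spearman correlation of the H4 ratio of replicate 1 with the H3 ratio of replicate 3 was 0.36, of the 2 H3 ratios 0.13, and of the 2 IgG ratios 0.02. For Cenp-a it was 0.50 between replicates 1 and 3 and 0.16 and 0.19 with replicate 2. Replicate 2 was the one that shared least with the others in both sets. Cenp-a 2 held 84 counts in its median bin beside 322 and 1418 in Cenp-a 1 and 3. H3 2 held 392, beside 315 in H4 1 and 283 in H3 3. Depth as a part of it was not tested.

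The gene content of the window was lower than that of the arms. RefSeq placed the midpoint of 957 protein-coding genes in it, 10.6 per Mb beside 15.4 per Mb more than 5 Mb away, and of 190 lncRNA genes, 2.11 beside 1.58 per Mb. The lncRNA genes were thus the denser in the window, but 41 of the 190 lay on the lower-coordinate side of chromosome 8. At 5 to 15 Mb there were 1.78 lncRNA genes per Mb. Protein-coding density rose outward, from 8.40 per Mb at 0.5 to 1 Mb to 12.2 at 4 to 5 Mb, and was 13.9 at 5 to 15 Mb. The window, 90.0 Mb in all, held 12 tRNA genes and 4 miRNA genes, beside 2354 and 182 in the 1349 Mb more than 5 Mb away. Of these, 10 of the 12 tRNA genes and all 4 miRNA genes of the window lay on the higher-coordinate side of chromosome 8. Protein-coding genes with a LOC name, a placeholder symbol, were 16.4% of those in the window and 28.9% of those beyond 5 Mb, but 19.6% of those at 5 to 15 Mb. Within the window they were 27.4% at 0.5 to 1 Mb and 13.9% at 4 to 5 Mb.

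The 2 sides of chromosome 8 differed in genes as well. The lower-coordinate side held 21 protein-coding genes (4.67 per Mb), of which 20 carry a LOC name and 1, atraid, does not, and 41 lncRNA genes (9.11 per Mb). The higher-coordinate side held 101 protein-coding genes (22.4 per Mb), 9 lncRNA genes, 10 tRNA genes and 4 miRNA genes. The lower side of chromosome 10 was the densest, with 26.7 protein-coding genes per Mb.

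Bins that overlap a protein-coding gene had a higher histone ratio than bins with no gene. In the 5471 bins with a protein-coding gene H4 to input was 1.03 and H3 to input 0.989 and 1.01, and in the 3174 bins with no gene it was 0.917, 0.979 and 0.982. Without chromosome 8 the values were 1.03, 0.988 and 1.02 and 0.932, 0.979 and 0.991. The same difference in H4 to input was present more than 5 Mb away, at 1.05 with a protein-coding gene and 0.973 without a gene. IgG to input in the window was 0.988 and 1.00 with a gene and 1.00 and 1.00 without. The higher H4 ratio of gene bins was thus not particular to the window. Median input levels in the window were 1.01, 1.02 and 1.02 with a protein-coding gene and 1.06, 1.06 and 1.07 with no gene. More than 5 Mb away the order was reversed (1.01, 1.00 and 1.00 beside 0.977, 0.976 and 0.976). Each ratio is divided by its input, and input level as a part of the difference was not tested.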

How the data were processed

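The authors deposited unnormalised read counts for each 10 kb bin, obtained by trimming with Trimmomatic 0.39, aligning with minimap2 2.17-r941, sorting with SAMtools 1.9 and counting with deepTools 3.3.0 (versions from the submitters' processing notes); the text read here names no removal of duplicates, and reads of any mapping quality were counted, so a read from a repeat can be placed in a near-identical copy. All 11 per-sample files equal their column of the table. Bins were placed on UCB_Xtro_10.0 by chromosome length, and gene limits come from RefSeq of that assembly; no genome sequence was used here.

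The members and lists were chosen with earlier results of these data known. Counts were divided by the total on the chromosomes. Comparisons used edgeR 4.0.16 (R 4.3.3; glmQLFit, robust, and glmQLFTest) over all bins that reached 10 counts in 50% or more of the compared libraries, the replicate number as a block and Benjamini-Hochberg adjustment; a bin was called at an adjusted p under 0.05. Ratios in a bin had 0.1 CPM added to both values. DESeq2 1.42.0, TMM factors, other filters and windows, no block and leaving out each replicate were alternatives. edgeR was tested on simulated data, with 100 bins raised 1.5-fold and 100 raised 8-fold in each comparison. It recovered 11 of the 1.5-fold bins for IgG against input and 84 to 95 in the other comparisons. All 100 of the 8-fold bins were recovered in each. Of the unchanged bins 5 to 16 were called. Before raising, a bin had the same expected share in every library, with 1 dispersion for all bins. The raised bins were those with at least 10 expected counts in the shallowest library. Differences between replicates were not simulated, so recovery in the real libraries may be lower. The block follows the design text, which gives each replicate its own input; deviations from the group means correlated at 0.12, -0.04 and 0.12 (Cenp-a with input), 0.13, -0.09 and 0.13 (H3/H4 with input) and 0.21, 0.19 and 0.16 (Cenp-a with H3/H4) for replicates 1 to 3. Between libraries of different number they ran from -0.21 to 0.14, -0.26 to 0.19 and -0.18 to -0.03, so against input some different-number pairs correlated as much as the same-number ones. Bins were named by rule: in each comparison up to 5 called bins with the largest fold in each direction, the bin with the highest Cenp-a to input ratio on each chromosome, and the 5 highest and 3 lowest in input. Depth limits IgG 2 most. Intervals are not given, and p-values cover the spread between libraries only.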

Additional observations from a re-analysis of the deposited data

How the results depend on the processing

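In Cenp-a against input, the 213 bins higher and 293 lower became 32 and 87 with DESeq2, and 23 to 429 and 30 to 638 with 1 replicate left out. No share over all bins stands beside these alternative counts, so nothing about the window is read from them. In H3/H4 against input, the 1 bin higher became 0 with TMM factors, 0 with DESeq2 and 0 with no replicate block, and 1 to 148 with 1 replicate left out, and the 0 lower became 25 with DESeq2 and 0 to 304 with 1 left out, highest in each case without replicate 2. In Cenp-a against H3/H4, the 0 higher became 0 to 1. Without the replicate block Cenp-a against input gave 205 and 272. IgG against input could not be refitted with a replicate left out, since no residual degrees of freedom remain. The mean log2 regional ratio of Cenp-a to input, -0.03, was -0.0081 without the bins over 2 times the median input, -0.052 scaled to the bins 5 to 15 Mb away, 0.0030 without chromosome 8 and 0.0055 without chromosomes 3 and 8 (the last 2 chosen after seeing the data); leaving out 1 replicate gave -0.03 to -0.02. The cause was not tested. The mean for H3/H4, -0.05, was negative in every alternative run (-0.023 without the bins over 2 times the median input, -0.030 as the median over bins, -0.073 scaled to 5 to 15 Mb, -0.021 without chromosome 8), but H3 replicate 3 alone rose to 1.00 without chromosome 8 and p to 0.5. The mean for IgG was positive in every alternative, but IgG replicate 3 was 0.996 scaled to 5 to 15 Mb, with p = 1 (two-sided exact sign-flip permutation tests). Depth limits IgG 2, at 26 counts in its median bin.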
